A study of Mus musculus with 9 samples.

Results

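The 9 genes described here, Hmox1, Blvrb, Slc40a1, Slc11a1, Tfrc, Fth1, Ftl1, Hamp and Cp, handle iron and heme, and they were taken by name from the 27998 genes of a single-cell count table of mouse liver. All 9 were in the table. They were followed across cell classes and across the groups of a YAP induction experiment. The assay was single-cell RNA-seq of transcript 3′ ends in droplets, in 9 libraries from mice on a C57BL/6 background. Whole livers were digested with collagenase, and the methods describe a preparation of non-hepatocytes, so that the few hepatocytes below are those left in it. The WT group (2 libraries) had the genotype ROSA26-rtTA-IRES-EGFP; WT and was fed doxycycline for 7 days. The YAP3d group (4 libraries) and the YAP7d group (3 libraries) carried the tetYAP transgene with the same rtTA allele and were fed doxycycline for 3 and 7 days. WT and YAP7d therefore shared the length of doxycycline feeding, whereas WT and YAP3d did not. Per the methods the mice were crossed with Alb-Cre, which opens the rtTA allele in hepatocytes, and the transgene encodes a constitutively active YAP. The non-parenchymal cells described below are thus cells next to hepatocytes in which the transgene was designed to act.

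Iron circulates in a loop in which the liver holds a central place. Kupffer cells, the resident macrophages of liver sinusoids, take up aged red blood cells and haemoglobin. Heme oxygenase 1 (Hmox1) opens the heme ring and releases iron, and biliverdin reductase B (Blvrb) reduces heme breakdown products and flavins. Ferroportin (Slc40a1) is the only known cellular iron exporter, and the iron it releases is oxidised by ceruloplasmin (Cp) and carried in blood by transferrin. Transferrin receptor 1 (Tfrc) takes up transferrin-bound iron, Slc11a1 (NRAMP1) moves iron out of phagosomes, and ferritin heavy and light chains (Fth1, Ftl1) store iron. Hepcidin (Hamp), a hormone of hepatocytes, binds ferroportin and leads to its degradation. The table measures RNA alone, so that protein regulation of ferroportin by hepcidin and of ferritin by iron regulatory proteins lies outside the measurement.

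In the RefSeq annotation of GRCm38.p6, which is the mm10 build of the submitters' processing notes, all 9 were protein-coding genes. Hmox1 lay at chr8:75093618-75100593 and Blvrb at chr7:27447978-27465981. Slc40a1 lay at chr1:45908070-45926532 and Slc11a1 at chr1:74375014-74386057. Tfrc lay at chr16:32608896-32632794, Fth1 at chr19:9980600-9985111 and Ftl1 at chr7:45457944-45459886. Hamp lay at chr7:30942368-30944029 and Cp at chr3:19956933-20009750. Each value below counts 3′ ends of transcripts over the whole gene.

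4 of the members share an RNA element that ties their messages to cellular iron, the iron-responsive hairpin, which iron regulatory proteins bind when iron is low. A hairpin in the 5′ untranslated region is known to hold back translation, and hairpins in the 3′ untranslated region are known to keep the message from decay. Transcripts of Gencode vM1 were searched for a loop written CAGNGN, with A or T at the position after CAG, on a stem of 5 pairs with a C bulge beyond it. The sites are shown because they set apart the members whose protein can move without a change in RNA (Fth1, Ftl1, Slc40a1) from the one whose RNA itself answers iron (Tfrc). Capitals mark the 6-base loop.

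Fth1 5′ untranslated region, bases 30 to 59 of 866: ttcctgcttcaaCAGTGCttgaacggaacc
Ftl1 5′ untranslated region, bases 78 to 107 of 968: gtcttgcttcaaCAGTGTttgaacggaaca
Slc40a1 5′ untranslated region, bases 102 to 131 of 3380: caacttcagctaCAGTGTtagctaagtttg
Tfrc 3′ untranslated region, bases 3256 to 3285 of 4890: atttatcagtgaCAGAGTtcactataaata
Tfrc 3′ untranslated region, bases 3315 to 3344 of 4890: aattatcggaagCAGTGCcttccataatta
Tfrc 3′ untranslated region, bases 3694 to 3723 of 4890: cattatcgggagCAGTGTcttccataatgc
Tfrc 3′ untranslated region, bases 3759 to 3788 of 4890: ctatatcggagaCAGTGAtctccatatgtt
Tfrc 3′ untranslated region, bases 3806 to 3835 of 4890: aattatcgggaaCAGTGTttcccataattt

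Such a site stood in the 5′ untranslated region of 70 of 19854 genes (0.353%), among them 3 of the 9 members. A Cp transcript also held 1 match, in an alternative 3′ untranslated region, which is a match of letters only.

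The table held 8562 cells and 63380159 UMIs (molecular tags that let each captured RNA be counted once), and 8527 cells with at least 200 genes were used. Libraries held 293 to 2554 cells with a median of 3190.5 to 11471.5 UMIs per cell, and the 3 YAP7d libraries were the deepest (5717 to 11471.5). The labels name reagent kits of versions 2 and 3 for all libraries, whereas the methods give version 2 for whole liver. Transcripts of the pseudogene Gm10709 on chromosome 9 split the libraries: they stood at 347 to 611 CPM (counts per 1000000 UMIs) in YAP3d replicates 1 and 2 and all 3 YAP7d replicates, and at 3.65 to 11.2 CPM in both WT replicates and YAP3d replicates 3 and 4. Every WT library is thus on one side and every YAP7d library on the other, so results were also computed within each side and with a term for it. Between 2 libraries at most 7 cell barcodes were shared. Cells were clustered and each cluster was named after the cell type whose markers it showed, which is why classes are called Kupffer-like, endothelial-like and so on.

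Across the cell classes the members fell into distinct patterns. Heme breakdown and export genes were highest in Kupffer-like cells, and the phagosomal transporter was high in Kupffer-like and other macrophage-like cells. The hormone was highest in hepatocyte-like cells and Cp in cholangiocyte-like cells, and ferritin was present everywhere. Levels are the mean CPM over libraries with at least 10 cells of the class, and they compare classes for 1 gene, not genes with each other. Hmox1 stood at 841 ± 377 CPM (SD, n = 9 libraries) in Kupffer-like cells and at 286 ± 122 (n = 6) in other macrophage-like cells. It followed in monocyte-like cells with 185 ± 96.4 (n = 6), in endothelial-like cells with 65.3 ± 14.0 (n = 9) and in neutrophil-like cells with 60.3 ± 48.7 (n = 4). The ranges of other macrophage-like and monocyte-like cells overlapped (147 to 494 and 89.6 to 338 CPM), as did those of endothelial-like and neutrophil-like cells, and 7 further named classes had means of at most 12.9 CPM. Kupffer-like cells were 7.13% of cells and held 47.3% of all Hmox1 UMIs, between 30.9 and 80.9% in single libraries.

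**Figure D1:**
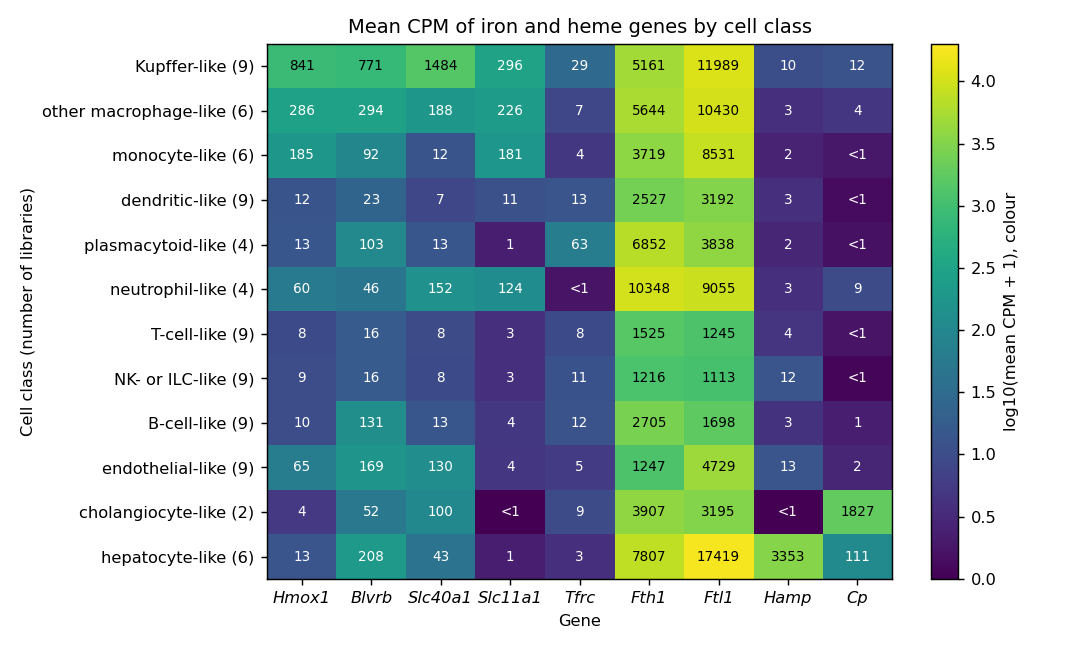
Mean CPM (number in each cell, colour on a log10 scale) of the 9 genes (columns) in 12 cell classes (rows, with the number of libraries averaged). Hmox1, Blvrb, Slc40a1 and Slc11a1 have their highest mean in Kupffer-like cells, at 841, 771, 1484 and 296 CPM, whereas Hamp reaches 3353 CPM in hepatocyte-like cells and Cp 1827 CPM in cholangiocyte-like cells.

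The other enzyme of the heme pathway, Blvrb, had 771 ± 98.2 CPM (n = 9) in Kupffer-like cells and 294 ± 96.2 (n = 6) in other macrophage-like cells. Hepatocyte-like cells followed with 208 ± 87.1 (n = 6), endothelial-like cells with 169 ± 49.5 (n = 9) and B-cell-like cells with 131 ± 30.3 (n = 9), each overlapping its neighbour in range. T-cell-like and NK- or ILC-like cells had means of 16.4 and 16.5 CPM. Blvrb was thus spread over more classes than Hmox1, with B-cell-like cells well above T-cell-like cells.

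Ferroportin RNA was even more concentrated. Slc40a1 stood at 1484 ± 299 CPM (n = 9) in Kupffer-like cells, and its lowest Kupffer-like library (1039 CPM) lay above the highest library of every class without Kupffer-like cells. Other macrophage-like cells had 188 ± 127 (n = 6), neutrophil-like cells 152 ± 37.9 (n = 4), endothelial-like cells 130 ± 56.9 (n = 9) and cholangiocyte-like cells 99.9 ± 33.7 (n = 2), all with overlapping ranges. Summed over all libraries, Kupffer-like cells held 72.9% of the Slc40a1 UMIs and endothelial-like cells, 22.8% of cells, held 9.78%. The endothelial-like share differed widely between the groups, as given below, and was far higher in WT and YAP3d than in this sum. Monocyte-like cells, with 12.1 ± 10.6 (n = 6), were at the level of lymphoid cells for this gene, unlike for Hmox1.

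Slc11a1, the phagosomal transporter, was highest in macrophage-, monocyte- and neutrophil-like cells. Its means were 296 ± 47.8 CPM (n = 9) in Kupffer-like, 226 ± 69.1 (n = 6) in other macrophage-like, 181 ± 51.1 (n = 6) in monocyte-like and 124 ± 59.8 (n = 4) in neutrophil-like cells. Neighbours in this order overlapped, and every other named class had a mean of at most 10.7 CPM. Tfrc was low throughout, at 63.3 ± 15.3 CPM (n = 4) in plasmacytoid-like and 28.9 ± 17.9 (n = 9) in Kupffer-like cells, and at most 12.7 in the other named classes.

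Both ferritin chains were detected in every class. Fth1 was highest in neutrophil-like cells (10348 ± 1795 CPM, n = 4), then in hepatocyte-like (7807 ± 866, n = 6) and plasmacytoid-like cells (6852 ± 1088, n = 4), which overlapped, and lowest in NK- or ILC-like (1216 ± 303, n = 9) and endothelial-like cells (1247 ± 214, n = 9). Ftl1 was highest in hepatocyte-like cells (17419 ± 2580, n = 6), ahead of Kupffer-like cells (11989 ± 2831, n = 9), again with overlapping ranges. Its counts carry a limit: the pseudogene transcript Gm10116 was identical to Ftl1 in 917 of 921 aligned bases (99.6%), so that the split of reads between them is uncertain, and Gm10116 was the gene with the profile most like Ftl1.

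Hamp and Cp marked the epithelial classes. Hamp stood at 3353 ± 1933 CPM (n = 6) in hepatocyte-like cells, with 1489 CPM in the lowest library and 6760 in the highest, and at most 12.7 CPM on average in any other named class. Those cells were 1.35% of all cells and held 86.1% of the Hamp UMIs. Hepatocyte-like cells had 0.448 Hamp UMIs per Alb UMI, a ratio that lay within the range of the other named classes apart from cholangiocyte-like cells, from 0.177 in Kupffer-like to 0.5 in NK- or ILC-like cells (73 and 18 Hamp UMIs). The cholangiocyte-like class, with Alb at 3474 and 4748 CPM in its 2 libraries of at least 10 cells, had 0 Hamp UMIs in both, which allows levels of up to 25.3 and 26.5 CPM (3 counts, counting error only). Cp, in contrast, stood at 1833 and 1821 CPM in those 2 libraries and at 111 ± 76.2 CPM (n = 6) in hepatocyte-like cells.

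The genes closest to each member over 12 classes, by Pearson correlation of log2(CPM + 10) among 6292 genes, are given as a description, because the classes share libraries. For Hmox1 they included C1qb (r = 0.946) and Lpl (0.938), and for Slc40a1 they were Il18bp (0.920), Vcam1 (0.908) and Rxra (0.876). Slc11a1 was closest to Fcgr4 (0.991), Pilrb1 (0.984) and Atp6v1b2 (0.980), and Blvrb to Itsn1 (0.824), Fabp7 (0.822) and C4b (0.803). For Hamp they were Fgb (0.997), Asgr1 (0.996) and A1cf (0.995), and for Cp they were Onecut2 (0.995), Agt (0.991) and Pdzk1ip1 (0.991). Ftl1 followed Gm10116 (0.965), Gpx1 (0.909) and Plin2 (0.899). Fth1 was closest to Bbip1 (0.859), Vamp8 (0.823) and Litaf (0.809), and Tfrc to Npc1 (0.902), Arhgap27os2 (0.872) and Nceh1 (0.858).

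In Kupffer-like cells Hmox1 was lower after 7 days of YAP induction, while ferroportin, Blvrb and Slc11a1 held levels whose differences did not pass the test. Hmox1 stood at 1384 and 1255 CPM in WT replicates 1 and 2. It stood at 523, 784, 1193 and 994 CPM in YAP3d replicates 1 to 4, and at 614, 404 and 421 CPM in YAP7d replicates 1 to 3. Every YAP7d library was below both WT libraries, and YAP3d spanned the space between, overlapping YAP7d. The means were 1319 ± 91.0 (SD, n = 2), 873 ± 287 (n = 4) and 480 ± 117 CPM (n = 3). For this test the counts of a library's cells were added up, and edgeR's quasi-likelihood test was fitted over all genes with enough counts, with Benjamini-Hochberg adjustment over all of them. Between YAP7d and WT, Hmox1 fell by 1.50 on the log2 scale (SE 0.31, adjusted p = 0.0251 by edgeR). It was the 1 of 7 tested members called, where 1.65% of all 6006 genes were called. Hamp and Cp, with at most 26.4 CPM in any Kupffer-like library, were too low to be tested.

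**Figure D2:**
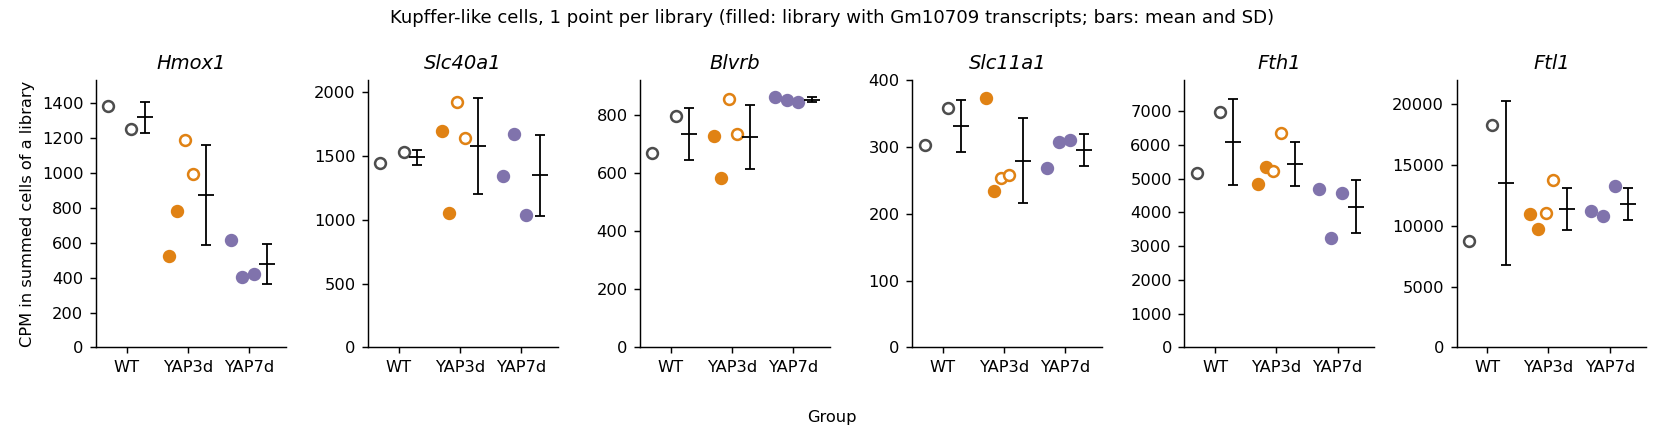
CPM (y axes, from 0) of 6 genes in Kupffer-like cells of each library (1 point), by group, with the mean and SD beside the points and filled points for libraries with Gm10709 transcripts. Hmox1 lies at 1255 to 1384 CPM in WT and at 404 to 614 in YAP7d, whereas Slc40a1, Blvrb and Slc11a1 overlap or lie close together in the 3 groups.

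The Hmox1 difference moved with the Gm10709 split. Among libraries without these transcripts Hmox1 was 1255 to 1384 CPM in WT and 994 to 1193 in YAP3d, and among libraries with them it was 523 to 784 in YAP3d and 404 to 614 in YAP7d. Groups did not overlap on the first side and did on the second. With a term for the split the log2 fold change between YAP7d and WT was -0.76 (SE 0.40, adjusted p = 0.982 by edgeR). WT and YAP7d never stood on the same side, so that for Hmox1 the group and the split cannot be told apart. The call was also lost without WT replicate 1, WT replicate 2, YAP7d replicate 2 or YAP7d replicate 3, with log2 fold changes of -1.71 to -1.37 over all single libraries left out and an adjusted p of up to 0.352.

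Composition of the class also moved with the groups. WT and YAP3d Kupffer-like cells came from cluster 13 (59 and 70 cells) and cluster 15 (26 and 74 cells), whereas all 379 YAP7d cells came from cluster 15. Within cluster 15 alone Hmox1 was 1078 CPM in WT replicate 1, 784 and 718 in YAP3d replicates 2 and 3, and 614, 404 and 421 in YAP7d (libraries with at least 10 cells there). In cluster 13 it was 1676 and 1317 CPM in WT replicates 1 and 2 and 958 in YAP3d replicate 4. The part of this composition in the Hmox1 result was not tested. The 12 macrophage markers were all present, at a summed 30295 to 35480 CPM in WT and 24039 to 28573 in YAP7d. Those of endothelial cells summed to 896 to 1025 CPM in WT, 336 to 1172 in YAP3d and 317 to 321 in YAP7d, and their part in the Hmox1 result was not tested. Hmox1 itself was at most 97.0 CPM in any endothelial-like library. The haemoglobin transcript Hbb-bs ranged from 0 to 164 CPM in WT, 0 to 14.1 in YAP3d and 0 to 580 in YAP7d Kupffer-like cells.

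The share of Kupffer-like cells with at least 1 Hmox1 UMI shows how depth and level interact. As deposited, 75.1 ± 20.3% (n = 2) of WT and 87.5 ± 8.39% (n = 3) of YAP7d cells had one, at median depths of 1903 to 7028 and 9565.5 to 23064 UMIs. Thinned to 1500 UMIs per cell, which left out 12 WT, 12 YAP3d and 0 YAP7d cells, the share was 62.8 ± 0.465% (n = 2) in WT, 41.1 ± 15.8% (n = 3) in YAP3d and 33.6 ± 4.48% (n = 3) in YAP7d, with YAP3d replicate 1 left out for having 7 cells of that depth. B-cell-like cells, which are not known for Hmox1, had 2.25, 0.443 and 2.97% after the same thinning, at median depths of 2650.5 to 5029 UMIs. At equal depth the order of the shares thus followed the CPM, and before thinning it did not.

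Ferroportin was not called in Kupffer-like cells. Slc40a1 stood at 1450 and 1533 CPM in WT, at 1699, 1051, 1928 and 1638 in YAP3d and at 1341, 1674 and 1039 in YAP7d. The 3 groups overlapped, and the log2 fold change between YAP7d and WT was -0.20 (SE 0.29, adjusted p = 0.786 by edgeR). YAP3d replicate 2 and YAP7d replicate 3 were lowest. In thinned cells 93.9 ± 8.68% of WT (n = 2) and 82.3 ± 8.38% of YAP7d cells (n = 3) held a Slc40a1 UMI.

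Blvrb stood at 672 and 799 CPM in WT, at 728, 584, 855 and 736 in YAP3d and at 865, 854 and 846 in YAP7d Kupffer-like cells. Its YAP7d libraries were close together and above both WT libraries, but the log2 fold change of 0.17 (SE 0.26) did not pass the test (edgeR adjusted p = 0.801). Of the 2 enzymes of heme breakdown Hmox1 alone was past the threshold, and the Blvrb change was smaller than its SE. Slc11a1 was 303 and 358 CPM in WT, 373, 234, 253 and 258 in YAP3d and 268, 307 and 311 in YAP7d, overlapping throughout (-0.22 ± 0.28 SE as log2 fold change, adjusted p = 0.743 by edgeR).

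The ferritin chains were not called in Kupffer-like cells. Fth1 was 5179 and 6977 CPM in WT, 4837, 5336, 5241 and 6364 in YAP3d and 4694, 3257 and 4564 in YAP7d, with each YAP7d library below both WT libraries (-0.58 ± 0.29 SE as log2 fold change, adjusted p = 0.307 by edgeR). Ftl1 was 8763 and 18305 CPM in WT, a spread wider than the differences between group means, 9728 to 13755 in YAP3d and 10830 to 13301 in YAP7d (-0.24 ± 0.33 SE as log2 fold change, adjusted p = 0.772 by edgeR). Its copy Gm10116 had 105 and 1231 CPM in those WT libraries. Tfrc rested on few molecules, 1 and 15 UMIs in WT, and its log2 fold change of -0.51 had an SE of 0.68.

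Over all macrophage-like cells, of which the Kupffer-like cells are a part, Hmox1 was 995 and 1029 CPM in WT and 455, 325 and 314 in YAP7d. YAP3d, at 384 to 781 CPM, overlapped YAP7d. The mix of cells in this class differed between the groups: other macrophage-like cells, with 286 CPM of Hmox1 on average beside 841 in Kupffer-like cells, were 26 of 111 cells in WT, 56 of 200 in YAP3d and 496 of 875 in YAP7d. The part of this mix in the result was not tested. Hmox1 fell by 1.50 on the log2 scale (SE 0.29, adjusted p = 0.0185 by edgeR), the 1 of 8 tested members called where 1.57% of 7156 genes were called. The call was lost without WT replicate 1, WT replicate 2 or YAP7d replicate 2, and with the term for Gm10709 libraries (-0.81 ± 0.38 SE, adjusted p = 0.998 by edgeR). Fth1 was 9652 and 7516 CPM in WT, 5419 to 6239 in YAP3d and 4673, 3408 and 4995 in YAP7d. Its log2 fold change of -0.99 (SE 0.25) missed the threshold with edgeR (adjusted p = 0.0620) and passed it with DESeq2 for Fth1 (adjusted p = 0.0114).

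Between YAP7d and YAP3d no member was called in either class, where 0.749% of Kupffer-like and 0.307% of macrophage-like genes were called by edgeR. The Hmox1 log2 fold change there was -0.88 (SE 0.27, adjusted p = 0.163 by edgeR) in Kupffer-like and -0.78 (SE 0.25, adjusted p = 0.215 by edgeR) in macrophage-like cells. Between YAP3d and WT edgeR called 0% of genes in both classes, with 253 of 6006 and 298 of 7156 genes at an unadjusted p below 0.05, and DESeq2 called 0. The Hmox1 log2 fold changes were -0.63 (SE 0.30) and -0.72 (SE 0.28). Both comparisons with YAP3d share libraries with the one between YAP7d and WT.

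Of 85 further iron and heme genes, in 7 lists covering heme transport, heme synthesis, iron transport, sensing, mitochondria, hepcidin control and the Nrf2 and Bach1 regulators, 49 were tested in Kupffer-like cells. Between YAP7d and WT 0 rose and 1 fell, a share near the 1.65% of all genes called, with a median log2 fold change of -0.02 beside 0.01 over all genes. The gene that fell was Cd163, the macrophage receptor for haemoglobin bound to haptoglobin. It stood at 435 and 325 CPM in WT, 280, 254, 398 and 370 in YAP3d and 135, 219 and 101 in YAP7d, with no overlap between WT and YAP7d. Its log2 fold change was -1.35 (SE 0.33, adjusted p = 0.0497 by edgeR), and the call was lost in 9 of 18 alternatives, among them the term for Gm10709 libraries and 6 of 9 single libraries left out (both WT replicates, YAP3d replicates 1 and 3, and YAP7d replicates 1 and 3). Spic, the factor of red pulp and Kupffer macrophages that responds to heme, was 79.1 and 140 CPM in WT and 60.7 to 81.0 in YAP7d. Bach1, a heme-sensing repressor of Hmox1, was 26.4 and 19.0 CPM in WT and 18.1 to 25.9 in YAP7d, and neither was called. Over all macrophage-like cells 54 of these genes were tested, and between YAP7d and WT 0 rose and 1 fell, where 1.57% of all genes were called. It was Bmp2, a ligand that endothelial cells are known for, named after its values were seen because it stays under 50 CPM on average, at 72.2 and 16.7 CPM in WT and 0.414 to 2.58 in YAP7d, and its call was lost in 10 of 18 alternatives.

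In endothelial-like cells ferroportin, Blvrb and the ferritin light chain were lower at 7 days, and Hmox1 was not called. Slc40a1 stood at 188 and 178 CPM in WT replicates 1 and 2. It stood at 163, 125, 179 and 161 CPM in YAP3d replicates 1 to 4, and at 63.2, 58.6 and 51.3 CPM in YAP7d replicates 1 to 3. All 3 YAP7d libraries lay below the 6 others. The means were 183 ± 7.05 (n = 2), 157 ± 23.0 (n = 4) and 57.7 ± 6.03 CPM (n = 3), and Slc40a1 fell by 1.66 on the log2 scale between YAP7d and WT (SE 0.22, adjusted p = 1.1e-04 by edgeR). Against YAP3d it fell by 1.44 (SE 0.21, adjusted p = 1.9e-04 by edgeR). The call held in all 17 alternatives with a value in each of the comparisons with YAP7d, and with the term for Gm10709 libraries the log2 fold change from WT was -1.40 (SE 0.32, adjusted p = 0.0291 by edgeR).

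**Figure D3:**
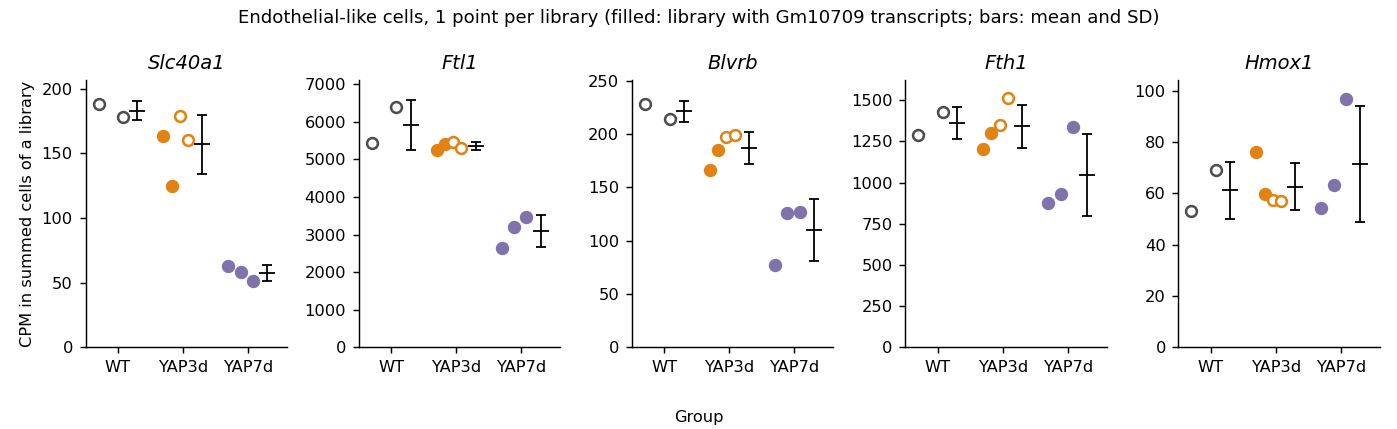
CPM (y axes, from 0) of 5 genes in endothelial-like cells of each library (1 point), by group, with the mean and SD beside the points and filled points for libraries with Gm10709 transcripts. Slc40a1 is at 51.3 to 63.2 CPM in YAP7d and at 125 to 188 in the 6 other libraries, and Ftl1 and Blvrb separate in the same way, while Hmox1 overlaps.

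Ftl1 stood at 5447 and 6387 CPM in WT, 5242, 5399, 5474 and 5300 in YAP3d and 2642, 3193 and 3475 in YAP7d endothelial-like cells. The YAP3d libraries were close to each other and to WT, and the YAP7d libraries were all below them. Ftl1 fell by 0.89 on the log2 scale from WT (SE 0.15, adjusted p = 6.4e-04 by edgeR) and by 0.73 from YAP3d (SE 0.13, adjusted p = 0.00116 by edgeR). With the term for Gm10709 libraries the first lost its call (-0.84 ± 0.23 SE, adjusted p = 0.0606 by edgeR) and the second kept it (-0.70 ± 0.15 SE, adjusted p = 0.0125 by edgeR). Gm10116, which can share its reads, was 117 and 427 CPM in WT and 9.03 to 63.5 in YAP7d.

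Blvrb stood at 228 and 214 CPM in WT, 167, 185, 197 and 199 in YAP3d and 76.8, 126 and 127 in YAP7d, again without overlap. It fell by 0.92 from WT on the log2 scale (SE 0.22, adjusted p = 0.00888 by edgeR) and by 0.67 from YAP3d (SE 0.20, adjusted p = 0.0298 by edgeR). The call against WT was lost without WT replicate 1 (adjusted p = 0.0592) and with the term for Gm10709 libraries (-0.69 ± 0.33 SE, adjusted p = 0.320 by edgeR). The call against YAP3d was lost with that term, with the replicate block, with DESeq2 and without YAP3d replicate 3, YAP3d replicate 4, YAP7d replicate 1 or YAP7d replicate 2.

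The 2 other members tested did not pass. Hmox1 was 53.2 and 69.1 CPM in WT, 76.3, 60.0, 57.3 and 57.2 in YAP3d and 54.2, 63.1 and 97.0 in YAP7d (0.37 ± 0.27 SE as log2 fold change, adjusted p = 0.384 by edgeR). Fth1 was 1291 and 1429 CPM in WT, 1204 to 1511 in YAP3d and 876, 929 and 1335 in YAP7d (-0.32 ± 0.19 SE as log2 fold change, adjusted p = 0.274 by edgeR). Of 5 tested members 3 were thus called in each comparison with YAP7d, where 18.4% of 7468 genes were called against WT and 17.1% against YAP3d. Between YAP3d and WT edgeR called 0 members and 0% of genes, with 145 genes at an unadjusted p below 0.05, and DESeq2 called 0.

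The endothelial-like cells of YAP7d stood apart as a population, which bears on these values. They were 111 cells beside 778 in WT and 1059 in YAP3d, and 95 of them lay in clusters 28, 29 and 30, formed when unnamed clusters were split again, whereas those of WT and YAP3d lay almost wholly in clusters 4, 7, 8 and 12. All 12 endothelial markers had UMIs in each group, at a summed 16208 to 18980 CPM in WT, 15178 to 17574 in YAP3d and 8888 to 9130 in YAP7d. Among the lower markers, Clec4g was 4838 and 6585 CPM in WT and 1086 to 1468 in YAP7d, and Kdr 1677 and 1309 against 713 to 840. Stab2 was 936 to 1150 CPM in WT and 555 to 726 in YAP7d. Lyve1 was 351 and 369 CPM in WT, 252 to 535 in YAP3d and 402 to 559 in YAP7d. The part of this shift in the ferroportin, Ftl1 and Blvrb results was not tested. In the sum over all cells the class held 39.7% of Slc40a1 UMIs in WT, 33.5% in YAP3d and 0.681% in YAP7d, and it was 40.2, 28.7 and 3.84% of the cells. With the split clusters left out no YAP7d library had 10 endothelial-like cells, so no value could be had without them.

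Kupffer markers, which free RNA from Kupffer cells would also carry, were measured in the same libraries. Clec4f was 18.9 and 45.8 CPM in WT endothelial-like cells and 27.1, 45.1 and 44.6 in YAP7d, and C1qa was 53.2 and 87.3 against 63.2, 40.6 and 113. Cd5l was 13 and 31.5 CPM in WT, 6.94 to 208 in YAP3d and 54.2, 122 and 121 in YAP7d. The part of such RNA in the Slc40a1 result was not tested. The 12 macrophage markers together summed to 1346 to 1664 CPM in WT, 1356 to 2007 in YAP3d and 953 to 1150 in YAP7d. At an equal depth of 1500 UMIs per cell, 21.9 ± 1.12% of WT (n = 2), 21.9 ± 4.48% of YAP3d (n = 4) and 5.79 ± 2.21% of YAP7d endothelial-like cells (n = 3) held a Slc40a1 UMI, and 91, 72 and 0 shallower cells were left out. Before thinning the shares were 46.1, 40.8 and 42.0%. In B-cell-like cells the thinned shares were 0.725, 1.05 and 5.32%, at the depths given above, beside 2317 to 4773 UMIs in WT and YAP3d and 7403.5 to 13759.5 in YAP7d endothelial-like cells.

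Of 51 genes of the 7 lists tested in the same cells, 4 fell between YAP7d and WT, where 18.4% of all genes were called in either direction, with a median log2 fold change of -0.19 beside -0.04 over all genes. Slc39a8, a transporter of zinc, manganese and non-transferrin iron, was 166 and 186 CPM in WT, 184, 106, 149 and 161 in YAP3d and 72.3, 40.6 and 60.2 in YAP7d (-1.54 ± 0.25 SE as log2 fold change, adjusted p = 6.1e-04 by edgeR). That fall, like the one of Slc40a1, left all YAP7d libraries below the 6 others. It held in 16 of 17 alternatives, and with the term for Gm10709 libraries the adjusted p was 0.0614.

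The remaining 3 falls were of genes on the hepcidin control list, measured here in endothelial-like cells. Whether they bear on Hamp was not tested. Bmp2, which endothelial cells send to hepatocytes to raise hepcidin, was 1276 and 1107 CPM in WT, 1228, 1329, 1454 and 1080 in YAP3d and 677, 870 and 739 in YAP7d. Its log2 fold change was -0.61 (SE 0.16, adjusted p = 0.0150 by edgeR) from WT, a call lost with the term for Gm10709 libraries and without WT replicate 1 or YAP7d replicate 1. From YAP3d it was -0.68 (SE 0.14, adjusted p = 0.00350 by edgeR), a call kept in 17 of 17 alternatives. Bmpr2, a receptor for these ligands, was 281 and 193 CPM in WT and 104, 113 and 76.9 in YAP7d (-1.29 ± 0.23 SE as log2 fold change, adjusted p = 0.00118 by edgeR). Smad7, an inhibitor of the pathway, was 117 and 119 CPM in WT and 54.2, 22.5 and 40.1 in YAP7d (-1.53 ± 0.29 SE as log2 fold change, adjusted p = 0.00186 by edgeR). With the term for Gm10709 libraries Bmpr2 kept its call (adjusted p = 0.0472) and Smad7 did not (adjusted p = 0.213).

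Against YAP3d 5 genes of the lists fell, where 17.1% of all genes were called. Blvra, the main biliverdin reductase, rose from 45.3 ± 2.84 (n = 4) to 79.1 ± 26.4 CPM (n = 3), a log2 fold change of 0.78 (SE 0.24, adjusted p = 0.0357 by edgeR). In the same endothelial-like cells the 2 biliverdin reductases thus moved in opposite directions against YAP3d, although the Blvra call was lost in 9 of 17 alternatives, among them the term for Gm10709 libraries, DESeq2 and the fits without YAP3d replicate 1, 3 or 4 or YAP7d replicate 1 or 2. The stress regulator Nfe2l2 (Nrf2) fell from 178 ± 30.4 (n = 4) to 114 ± 29.2 CPM (n = 3), a log2 fold change of -0.67 (SE 0.21, adjusted p = 0.0400 by edgeR) that was lost in 11 of 17 alternatives, including the fits without any 1 library except YAP3d replicate 1.

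**Figure D4:**
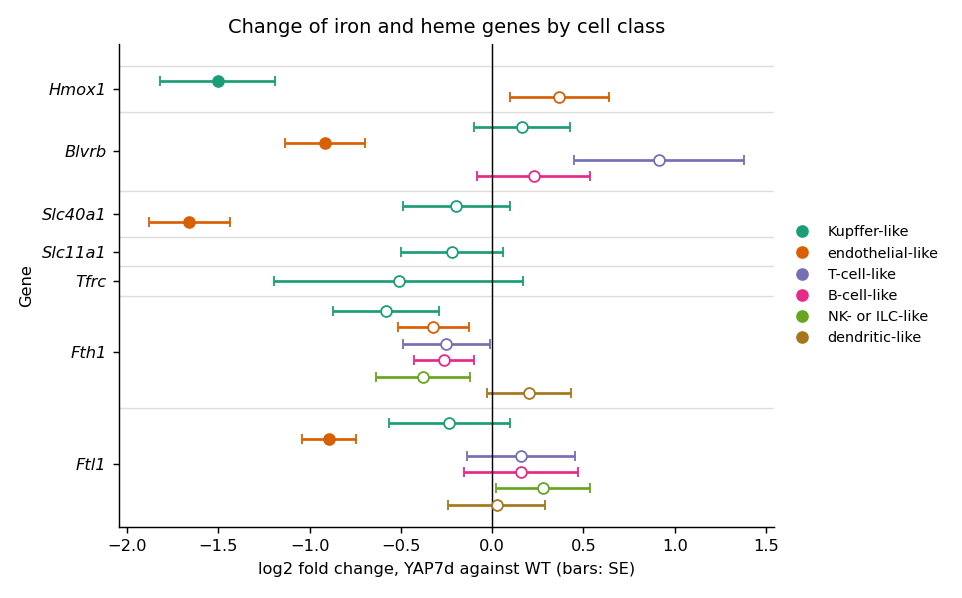
log2 fold change between YAP7d and WT (x axis, bars SE) of each member tested (y axis) in 6 cell classes (colours), filled where the edgeR adjusted p is below 0.05. The filled points are Hmox1 in Kupffer-like cells at -1.50 and Slc40a1, Blvrb and Ftl1 in endothelial-like cells at -1.66, -0.92 and -0.89.

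Whether a member changed more in one class than in the other was tested on each library's difference between Kupffer-like and endothelial-like cells. For Hmox1 the Kupffer-like change between YAP7d and WT minus the endothelial-like one was -1.68 (SE 0.64), with an unadjusted p of 0.0270 and a limma adjusted p of 0.758. For Slc40a1 it was 1.45 (SE 0.45), with an unadjusted p of 0.0102 and a limma adjusted p of 0.715, and for Blvrb 1.24 (SE 0.41, limma adjusted p = 0.715). Of 8141 genes limma called 0%, with 515 at an unadjusted p below 0.05, so that a difference between the classes was not shown for any member.

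Hepatocyte-like cells, where hepcidin is made, could be compared between YAP7d and YAP3d only, because WT had 3 such cells. They were 51 cells in YAP3d and 61 in YAP7d, and the 3 libraries of each group with at least 10 of them were compared, without YAP3d replicate 1 and its 9 cells. All 12 hepatocyte markers had UMIs, at a summed 16419 to 36526 CPM in YAP3d and 23946 to 34503 in YAP7d. Hamp stood at 1489, 3705 and 2189 CPM in YAP3d replicates 2 to 4 and at 2024, 3948 and 6760 in YAP7d replicates 1 to 3. The groups overlapped (0.79 ± 0.45 SE as log2 fold change, adjusted p = 0.390 by edgeR). Alb, from 2447 to 6468 CPM in YAP3d and 7415 to 11646 in YAP7d, was the higher in every YAP7d library. Hamp2, the neighbouring hepcidin-like gene, was 335, 488 and 1749 CPM in YAP3d and 97.8, 79.3 and 0 in YAP7d.

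The 250 bases before the annotated start of Hamp, from the RefSeq promoter table (GRCm38.p6, chr7:30944030-30944279, minus strand), are shown because 2 elements known from hepcidin control can be read in them. Capitals mark GGCGCC, the letters of the BMP-responsive element, 109 bases before the start, and a match of TTCNNNGAA, the letters of a STAT site, 97 bases before it.

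Hamp upstream: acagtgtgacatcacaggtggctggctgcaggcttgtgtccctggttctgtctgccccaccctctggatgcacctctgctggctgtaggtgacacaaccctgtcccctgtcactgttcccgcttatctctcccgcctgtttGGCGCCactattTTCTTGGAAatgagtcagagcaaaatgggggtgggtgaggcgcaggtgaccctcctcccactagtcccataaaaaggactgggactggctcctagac

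Searched on both strands, GGCGCC stood in 9.59% and TTCNNNGAA in 7.02% of 32851 such windows, and the 2 matches in the Hamp window did not overlap. The table held windows for 7 of the 9 members (11 windows), with Hmox1 and Slc40a1 missing. Tfrc also had GGCGCC, and TGACNNNGC, the core letters of a Nrf2 and Bach1 site, were in 10.2% of all windows and in none of these 11.

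**Figure D5:**
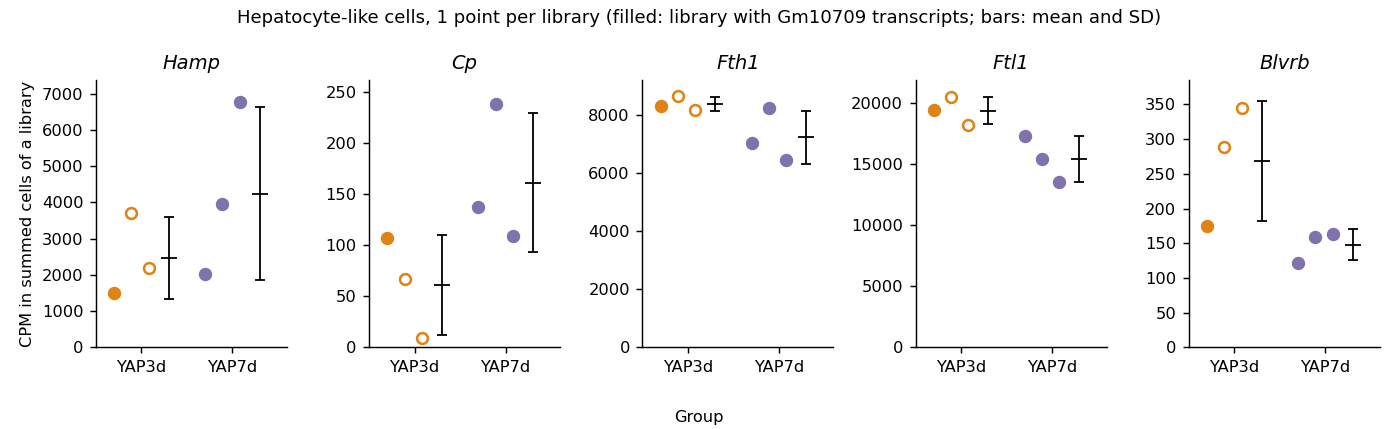
CPM (y axes, from 0) of 5 genes in hepatocyte-like cells of each library with at least 10 such cells (1 point), by group, with the mean and SD beside the points and filled points for libraries with Gm10709 transcripts. Hamp spans 1489 to 3705 CPM in YAP3d and 2024 to 6760 in YAP7d, and none of the 5 genes passed the adjusted test.

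Cp, the ferroxidase that hepatocytes secrete, was 107, 66.6 and 9.56 CPM in YAP3d and 137, 238 and 108 in YAP7d hepatocyte-like cells (1.49 ± 0.64 SE as log2 fold change, adjusted p = 0.241 by edgeR). Blvrb was 174, 288 and 344 CPM in YAP3d and 122, 159 and 163 in YAP7d (-0.90 ± 0.35 SE as log2 fold change, adjusted p = 0.199 by edgeR). Ftl1 was 18234 to 20501 CPM in YAP3d and 13560 to 17357 in YAP7d (-0.34 ± 0.14 SE as log2 fold change, adjusted p = 0.226 by edgeR). These 3 were at an unadjusted p below 0.05, as were 326 of 1713 genes, and edgeR called 0 of the 5 tested members, where 3.09% of genes were called. Fth1 overlapped, at 8171 to 8653 and 6450 to 8229 CPM (-0.23 ± 0.16 SE as log2 fold change, adjusted p = 0.497 by edgeR).

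Of 20 further iron genes tested in hepatocyte-like cells 1 rose and 0 fell, where 3.09% of all genes were called. Hpx, hemopexin, the plasma protein that binds free heme, was 335, 66.6 and 134 CPM in YAP3d and 503, 1118 and 1729 in YAP7d. Its log2 fold change was 2.58 (SE 0.57, adjusted p = 0.0443 by edgeR). The call was lost with the term for Gm10709 libraries (adjusted p = 0.591) and without YAP3d replicate 3, YAP3d replicate 4, YAP7d replicate 2 or YAP7d replicate 3. Alb was also higher in YAP7d, as given above, and its part in this result was not tested.

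In the remaining classes no member was called. Monocyte-like cells could be compared between YAP7d and YAP3d, where 6 members were tested, edgeR called 0% of 6734 genes with 274 at an unadjusted p below 0.05, and DESeq2 called 1. Hmox1 overlapped between the groups there, at 147 CPM in the 1 WT library, 338 and 118 in YAP3d and 268, 89.6 and 150 in YAP7d. In T-cell-like cells 3 members were tested (Fth1, Ftl1, Blvrb). The background there was 0% of 6568 genes between YAP7d and WT by edgeR (568 below 0.05 before adjustment, and 33 with DESeq2), 0% between YAP3d and WT (95 and 0) and 0.974% between YAP7d and YAP3d. Blvrb had the largest of these differences, a log2 fold change of 1.11 between YAP7d and YAP3d (SE 0.40, adjusted p = 0.216 by edgeR).

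The same 3 members were tested in B-cell-like cells, where edgeR called 0.0448% of 2233 genes between YAP7d and WT, 0% between YAP3d and WT (20 below 0.05 before adjustment, and 0 with DESeq2) and 0% between YAP7d and YAP3d (148 and 9). Their log2 fold changes lay between -0.26 and 0.42 in all 3 comparisons. In NK- or ILC-like and dendritic-like cells the ferritin chains alone were tested. The background was 6.72%, 0% (81 of 4002 below 0.05 before adjustment, and 0 with DESeq2) and 13.6% of NK- or ILC-like genes, and 0% (226 of 2852 and 27), 0% (85 and 0) and 0.105% of dendritic-like genes, for YAP7d against WT, YAP3d against WT and YAP7d against YAP3d. Fth1 had log2 fold changes of -0.38 (SE 0.26) and -0.44 (SE 0.22) in NK- or ILC-like cells for the comparisons of YAP7d with WT and YAP3d, and Ftl1 had 0.28 (SE 0.26) and 0.20 (SE 0.21). Of 20 further iron genes tested in NK- or ILC-like cells 1 was called, a share no higher than the background of 6.72 and 13.6%. It was Cisd1, an iron-sulfur protein of the outer mitochondrial membrane. It rose from 21.2 and 31.9 CPM in WT and 28.5 to 40.9 in YAP3d to 99.0, 109 and 68.8 in YAP7d, with log2 fold changes of 1.67 from WT (SE 0.38, adjusted p = 0.0174 by edgeR) and 1.64 from YAP3d (SE 0.31, adjusted p = 0.00284 by edgeR). The first was lost with the term for Gm10709 libraries, with DESeq2 and without WT replicate 1 or 2, and the second held in 18 of 18 alternatives.

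Of the further iron genes, 47 were tested in monocyte-like, 40 in T-cell-like, 7 in B-cell-like and 15 in dendritic-like cells, and edgeR called 0 in any comparison. In neutrophil-like cells, with 4 libraries of at least 10 cells, no comparison could be tested. Fth1 was 10726 CPM in WT, 10349 and 12333 in YAP3d and 7986 in YAP7d, and Ftl1 was 11585, 9346 and 9166, and 6125. Plasmacytoid-like cells, the class with the highest Tfrc, had 45.6 CPM in WT, 68.2 in YAP3d and 81.7 and 57.8 in YAP7d, from 6 to 30 UMIs per library, and were not tested either.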

How the data were processed

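The authors deposited 1 table of raw UMI counts per gene and cell, made with Cell Ranger on mm10, with Seurat 2 also named in the submitters' processing notes. Cells were assigned to libraries by the names in the table, and groups came from the labels. The library was taken as the replicate; the labels do not say that each came from a separate mouse, so p-values measure the spread between libraries, which may be technical. Cells with at least 200 genes were scaled to 10000 counts and clustered with scanpy 1.11.5 (2500 variable genes, 30 components, 15 neighbours, Leiden resolution 1, seed 0). A cluster took a class name with at least 3 markers raised by more than 1 on the log2 scale, unless another class had more markers among its top 10 genes by fold, which left 3 small clusters unnamed, and 2 unnamed clusters of over 100 cells were split again at resolution 0.5. Scrublet called 60 doublets (0.704%), which were kept.

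Deposited counts were summed per library and class with at least 10 cells and tested with edgeR 4.0.16 (quasi-likelihood, TMM, filterByExpr, Benjamini-Hochberg over all genes tested, threshold 0.05, R 4.3.3), with all 3 groups in the fit. An SE is the log2 fold change over the root of the F statistic. DESeq2 1.42.0 was an alternative, and limma 3.58.1 tested differences between classes. CPM are counts per 1000000 UMIs of the summed class. Total UMIs per library ran from 1314878 to 25056881. The test was checked on simulated counts. Intervals and the floor of 3 counts cover counting error only. Members, markers and lists were chosen with earlier results of these data known. Named were all members, the 3 genes most like each, and list genes called with a mean of at least 50 CPM, at most 5 in each direction. Alternatives were another normalization, no low-count filter, a replicate block, DESeq2, each library left out, a stricter cell filter (500 genes, 10% mitochondrial counts), resolution 2 and doublets left out. Some values for single genes are not reported here.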

Additional observations from a re-analysis of the deposited data

Results flagged for a closer look

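In sets of 4 YAP3d libraries, 2 of 30 had a lowest or highest library far from the other 3 by Dixon's criterion at the 95% level, and chance gives about 1 in 20. Slc40a1 in macrophage-like cells was 568 CPM in YAP3d replicate 2 and 1153 to 1225 in the others. Hmox1 in endothelial-like cells was 76.3 CPM in YAP3d replicate 1 and 57.2 to 60.0 in the others.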

How the results depend on the processing

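Calls of a member in a class numbered 5 between YAP7d and WT, for 4 members, since Hmox1 was called in Kupffer-like cells and in the macrophage-like class that contains them. The number was 1 with a term for Gm10709 libraries and 2 with re-clustered cells left out, both chosen after seeing the data, and 2 to 6 with single libraries left out (2 without WT replicate 1, 3 without WT replicate 2 or YAP7d replicate 2). Between YAP7d and YAP3d it was 3, and 5 with no low-count filter, 0 with re-clustered cells left out and 2 to 5 with single libraries left out (5 without YAP3d replicate 2 or YAP7d replicate 3). Between YAP3d and WT it was 0 in every alternative. Without re-clustered cells the comparisons with YAP7d could not be fitted in endothelial-like and dendritic-like cells.

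Genes called in Kupffer-like cells between YAP7d and WT numbered 99, and 391 with no low-count filter, 168 with DESeq2, 39 with the stricter cell filter, 1 with the Gm10709 term and 4 to 441 with single libraries left out (4 without WT replicate 2, 441 without YAP3d replicate 2). In macrophage-like cells they numbered 112, and 577, 175, 74, 1 and 17 to 379 (17 without WT replicate 2, 379 without YAP3d replicate 2) in the same order. In endothelial-like cells they numbered 1377 against WT (232 with the Gm10709 term, 661 to 1387 with single libraries left out, among them 661 without WT replicate 1, 813 without WT replicate 2 and 868 without YAP7d replicate 3) and 1278 against YAP3d (458, and 702 to 1277, with 702 without YAP7d replicate 3). The cause was not tested.

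With the replicate number as a block the Kupffer-like count was 339 and the macrophage-like count 279. Same-numbered libraries showed no consistent pairing: their deviations correlated at -0.389 to 0.308 over 52 pairs, 14 of them over 0.1. In 37 of 98 comparisons of a library with another group in a class, the best correlation was with its own number. These comparisons are not independent, and the number expected by chance was not computed. No called value reversed its direction. Of single genes, 93 values lost their call, 11 gained one and 1978 did neither. Among those 1978 were 120 uncalled values whose fold change changed sign.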
